A study of Rattus norvegicus with 6 samples.

Results

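Solute carriers are the largest group of membrane transport proteins and carry amino acids, sugars, ions, metals, nucleotides, vitamins and drugs across the plasma membrane or the membranes of organelles. Their genes carry symbols that begin with Slc and a family number. In sensory ganglia they are known for loading neurotransmitter into vesicles, clearing it from the extracellular space, setting the chloride level of the neuron, and feeding neurons and glia with glucose and lactate. The genes described here were chosen by name. They are all CpG sites of the deposited annotated table whose nearest transcript start belongs to a rat gene symbol of Slc and a digit, which gave 671 of 32674 sites and 173 of 8016 genes. One member, Slc4a1ap, matches the name but encodes an adaptor protein and not a carrier.

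DNA methylation was measured by reduced representation bisulfite sequencing (RRBS), which reads CpG-rich MspI restriction fragments, in dorsal root ganglia (DRG) of adult male Sprague-Dawley rats aged 8 to 9 weeks. The SNL group (n = 3 libraries) had the left L5 and L6 spinal nerves ligated, a model of neuropathic pain. The Sham group (n = 3) had surgery without ligation, which the labels place on the opposite side, so that libraries of both groups may come from 1 animal. All libraries were taken 3 weeks after surgery, no other allele or agent is named, and the labels do not say whether each library is a separate animal, so a p-value speaks only to the variation among the libraries at hand, part of which could be technical. A ganglion holds sensory neurons, satellite glia, Schwann cells and other cells, and in such bulk DNA a change of cell makeup and a change of methylation within cells cannot be told apart. DNA methylation gives no check of the tissue label against expressed markers.

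The coverage summed over CpG sites was 29342048 to 34226084 in SNL libraries and 27131679 to 32068534 in Sham libraries. A read that spans several CpGs counts at each of them. Each annotated site had at least 100 reads in every library. The Slc sites had 100 to 2478 reads, and the median over sites of the lowest coverage in any library was 173, the same as over all sites. The assignment of a site to a gene is by distance alone. The median distance of an Slc site to its start was 29.7 kb, 157 sites (23.4%) lay within 10 kb and 159 (23.7%) lay beyond 100 kb. Over all annotated sites these were 45 kb, 23.2% and 32.6%. The genes are unevenly covered, since 48 of the 173 had 1 site and 48 had 5 or more. The median was 3 sites, and the urea transporter gene Slc14a2 had the most, 33.

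Promoters at both ends of the methylation range are shown, to let the CpG content of their sequences be seen beside their level. Promoters (250 bases before to 50 after the start) are RefSeq sequences of the assembly GRCr8, matched by symbol for 17 of the 19 Slc genes with promoter sites, and are used for their letters only, since the sites themselves are listed on rn4. Slc12a2 encodes the chloride importer NKCC1 (chr18:53546083-53546382, plus strand) and Slc4a2 the anion exchanger AE2 (chr4:11645353-11645652, minus strand). Their windows held 52 and 39 CG dinucleotides, given in capitals. Slc12a2 stood at 1.54% ± 0.59 after SNL and 1.35% ± 0.51 in Sham over 3 sites 419 to 438 bases upstream. Slc4a2 stood at 1.58% ± 0.06 and 1.4% ± 0.59 over 4 sites 108 to 150 bases downstream (SNL and Sham, SD over 3 libraries), so the measured CpGs of both lie outside the letters shown.
Slc12a2: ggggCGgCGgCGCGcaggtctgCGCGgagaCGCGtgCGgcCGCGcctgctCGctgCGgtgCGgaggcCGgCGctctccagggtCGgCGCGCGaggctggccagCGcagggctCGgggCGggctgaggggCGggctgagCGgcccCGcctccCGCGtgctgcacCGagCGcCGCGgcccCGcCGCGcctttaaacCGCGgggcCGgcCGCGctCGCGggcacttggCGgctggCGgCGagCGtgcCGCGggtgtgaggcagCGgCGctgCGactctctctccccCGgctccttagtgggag
Slc4a2: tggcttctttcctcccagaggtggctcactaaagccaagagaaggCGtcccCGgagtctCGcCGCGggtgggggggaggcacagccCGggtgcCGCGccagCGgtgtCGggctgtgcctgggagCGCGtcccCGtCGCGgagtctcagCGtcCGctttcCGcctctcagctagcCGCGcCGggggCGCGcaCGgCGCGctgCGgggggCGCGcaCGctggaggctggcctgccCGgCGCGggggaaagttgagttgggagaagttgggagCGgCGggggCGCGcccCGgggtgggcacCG

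In 3 methylated promoters, 7 of the 8 measured sites fall within the window (the other Slc7a15 site lies 253 bases before the start), and these 7 lay within 1 base of a CG of the RefSeq sequence at their listed distance. Capitals mark these measured CpGs. Slc7a15 belongs to the amino acid carrier family SLC7 (chr6:37134452-37134751, minus strand, 9 CG), Slc14a2 encodes the urea transporter UT-A (chr18:74314497-74314796, minus strand, 5 CG), and Slc5a4 encodes a sugar carrier relative of the SGLT family (chr20:12518137-12518436, minus strand, 10 CG). Over all 33469 RefSeq promoters of GRCr8, measured here or not, the median was 7 CG and 51.4% held the MspI site CCGG (which reads the same on both strands). Over the 320 Slc promoters among them the median was 14 CG and 70.9% held CCGG. The windows of Slc39a8 and Slc35b2, at the low and high ends of promoter methylation, held 13 and 17 CG. Their measured sites lay 563 and 560 bases upstream, outside these windows, so the pair cannot show whether CpG content goes with methylation.
Slc7a15: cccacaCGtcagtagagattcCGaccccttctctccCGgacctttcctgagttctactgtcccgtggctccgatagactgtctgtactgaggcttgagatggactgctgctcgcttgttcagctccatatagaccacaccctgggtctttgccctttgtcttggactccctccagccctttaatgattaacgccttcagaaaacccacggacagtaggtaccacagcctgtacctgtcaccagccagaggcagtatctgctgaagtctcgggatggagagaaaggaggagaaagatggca
Slc14a2: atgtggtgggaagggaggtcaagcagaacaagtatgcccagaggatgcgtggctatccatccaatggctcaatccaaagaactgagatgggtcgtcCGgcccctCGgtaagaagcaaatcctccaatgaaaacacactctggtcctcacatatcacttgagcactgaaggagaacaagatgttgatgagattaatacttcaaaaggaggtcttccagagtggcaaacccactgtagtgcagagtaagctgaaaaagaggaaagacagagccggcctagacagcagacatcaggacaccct
Slc5a4: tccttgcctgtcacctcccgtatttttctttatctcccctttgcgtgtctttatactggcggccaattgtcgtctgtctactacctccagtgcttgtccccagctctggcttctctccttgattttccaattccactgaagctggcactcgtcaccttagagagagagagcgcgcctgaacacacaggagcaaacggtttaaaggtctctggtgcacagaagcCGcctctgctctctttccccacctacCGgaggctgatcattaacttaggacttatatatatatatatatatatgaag

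The 3 marked CpGs of Slc7a15, 244, 229 and 214 bases before the start, had mean methylation between 64.1% and 77.3% after SNL and between 69.4% and 79.1% in Sham. At the one nearest the start, methylation was 59.8%, 65% and 67.6% in SNL libraries and 69.6%, 74.1% and 64.6% in Sham libraries, with overlapping groups (adjusted p = 0.448). The 2 CpGs of Slc14a2 averaged 94.7%, 91.1% and 96.9% in SNL libraries, against 95.8%, 96% and 95.8% in Sham libraries. The 2 CpGs of Slc5a4 averaged 86.1%, 87.2% and 81.7% in SNL libraries, against 81.8%, 87.1% and 85.2% in Sham libraries. These 3 promoters were thus methylated in every library of both groups.

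Promoter methylation of the Slc genes ran from 1.11% (Slc39a8) to 95.9% (Slc14a2) in Sham, and none of the 45 promoter sites was called. A site is called here when its adjusted p is under 0.05 in a logistic test of methylated against unmethylated reads, with overdispersion moderated by limma and Benjamini-Hochberg adjustment over all 32674 sites. Over all annotated promoter sites the called share was 0.838%. At an unadjusted p under 0.05 there were 2 of 45 Slc promoter sites (4.44%), against 5.61% of all promoter sites. An unmoderated F test and limma on logit values called 0 of them too, but also 0 of all 32674 sites. The promoter sites averaged 21.9% ± 0.26 after SNL and 21.9% ± 0.71 in Sham (SD over 3 libraries), against 15.4% ± 0.17 and 15.6% ± 0.15 over all promoter sites.

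Of the 19 genes with promoter sites, 11 stood under 10% in both groups. They include the chloride cotransporter genes Slc12a2, Slc12a4 and Slc12a5, the glial glutamate transporter gene Slc1a2, the glucose transporter genes Slc2a1 and Slc2a3, and the glycine transporter gene Slc6a5. Slc39a8, a zinc and manganese importer gene with 1 promoter site, was at 4.39%, 4.29% and 1.16% in SNL libraries and 1.27%, 1.34% and 0.73% in Sham libraries. Its groups overlapped and its adjusted p was 0.416. At the high end, Slc35b2, which encodes a Golgi carrier of the sulfate donor PAPS, was at 77.7% ± 0.83 after SNL and 77.9% ± 1.72 in Sham (SD over 3 libraries, 1 site 560 bases upstream). Slc50a1, a sugar carrier gene, was the promoter with no overlap between the groups, at 18.1%, 18.2% and 19.3% in SNL libraries against 15.1%, 16.9% and 13.2% in Sham libraries over 3 sites (lowest adjusted p = 0.22). It was named after its values were seen.

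**Figure D1:**
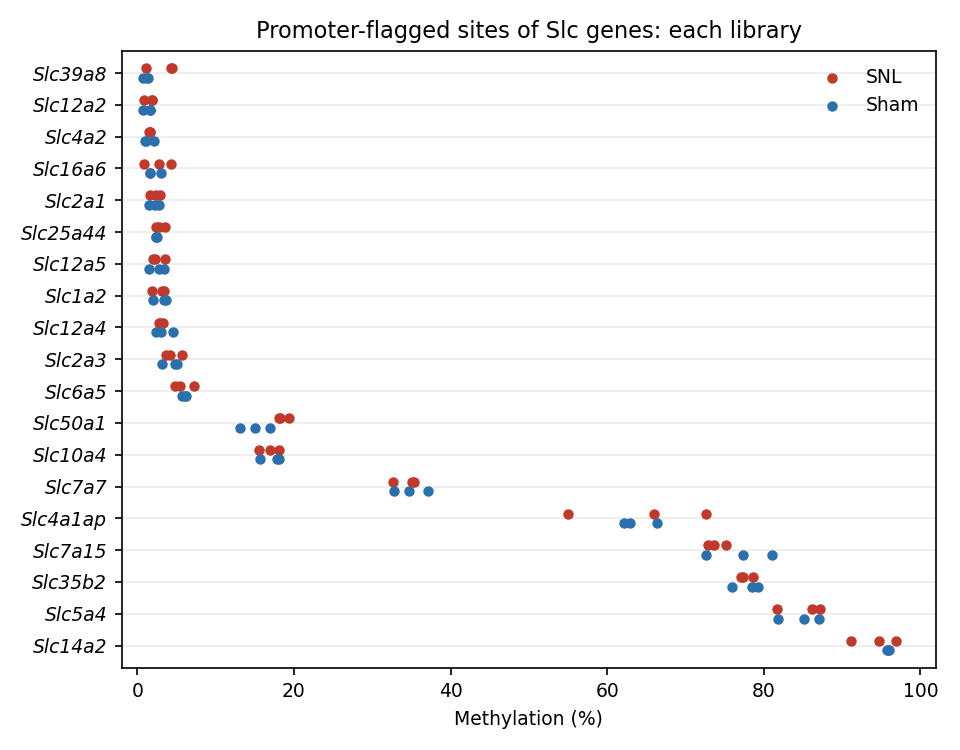
Methylation (%) of the promoter sites of 19 Slc genes, averaged over the sites of a gene, in each SNL library (red, upper dots) and each Sham library (blue, lower dots). Genes run in order of the Sham mean, 11 of them under 10% and 5 over 60%, and SNL and Sham dots overlap for each gene except Slc50a1.

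Most Slc sites were methylated. The median site level was 79.9% after SNL and 82% in Sham, against 81.3% and 83% over all sites. In Sham 110 Slc sites (16.4%) stood under 20%, 205 (30.6%) between 20 and 80% and 356 (53.1%) over 80%, close to the 15.6%, 29.8% and 54.6% of all sites. Sites in exons were at 78.2% ± 0.54 after SNL and 78.4% ± 0.27 in Sham (43 sites), against 59.9% ± 0.51 and 60% ± 0.31 over all exon sites (SD over 3 libraries). The 27 Slc sites in CpG islands, from only 7 genes, were at 1.82% ± 0.21 and 1.76% ± 0.11. Over all island sites, from 384 genes, these were 10.1% ± 0.18 and 9.88% ± 0.1. These contrasts with all sites were not tested.

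**Figure D2:**
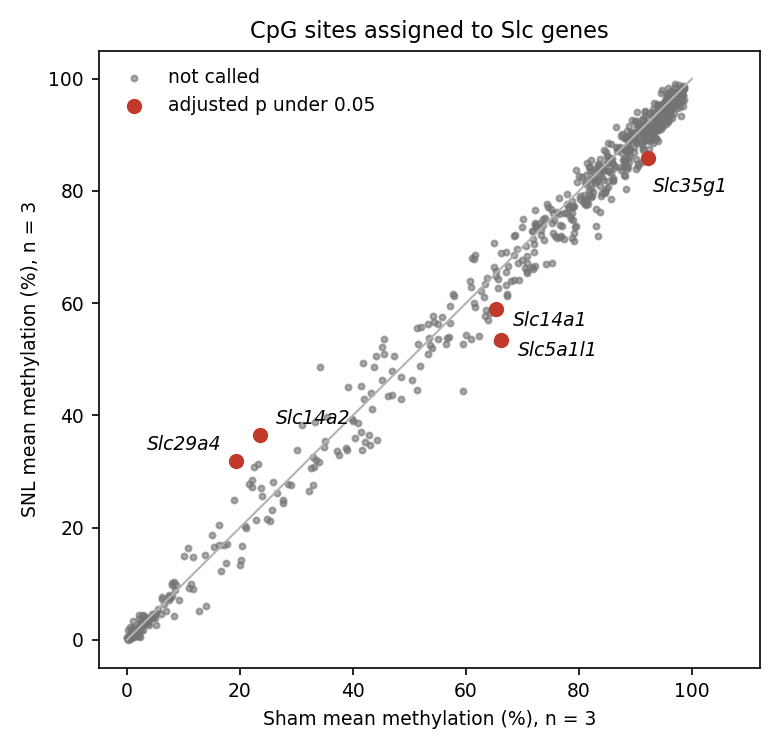
Mean methylation of each of the 671 Slc sites after SNL (y axis, %, n = 3) against Sham (x axis, %, n = 3), with the line of equal values in gray. The 5 called sites are red, 3 below the line and 2 above it, and most other sites lie near the line.

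The average over Slc sites moved with the average over all sites. The Slc mean was 65.7% ± 0.77 after SNL and 66.6% ± 0.23 in Sham (SD over 3 libraries), a difference of -0.82 points, and over all sites it was -0.92 points. The Slc difference was -1.26 points without SNL 1, -0.55 points without SNL 3 and -0.40 points over the sites within 10 kb of a start. The median site difference was -0.51 points, and 412 of 671 sites (61.4%) were lower after SNL, beside -0.55 points and 61.3% of all sites. An offset per library, the logit of its mean methylation, reduced the shift that sites share without taking all of it out. With it the medians were -0.20 points for Slc sites and -0.22 points for all sites, and for gene sums -0.04 and -0.23 points. In intergenic Slc sites, the mean was 64.9% ± 0.84 after SNL and 66.1% ± 0.25 in Sham (378 sites), and in introns it was 67.8% ± 0.82 and 68.2% ± 0.27 (232 sites). No p is given for such averages over chosen sites.

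At single sites 5 of the 671 were called (0.745%), 3 lower and 2 higher after SNL, whereas 464 of all 32674 sites were called (1.42%), 405 lower (1.24%) and 59 higher (0.181%). The Slc share was thus no higher than the background. The lower sites were assigned to Slc5a1l1, Slc35g1 and Slc14a1 and the higher ones to Slc29a4 and Slc14a2. An unmoderated F test and limma on logit values called 0 of the Slc sites (39 and 57 at an unadjusted p under 0.05, against 86 in the moderated test) and 0 of all sites (1965 and 3480, against 4276). Leaving out SNL 1 gave 8 calls, and leaving out SNL 3 or Sham 1 gave 4. Leaving out Sham 2 gave 3 calls, SNL 2 gave 2 and Sham 3 gave 1. With library offsets 4 were called, 2 of them lower, and over all sites the lower share of calls was 74.1% in place of 87.3%.

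The largest loss among them lay in an intron 2 kb downstream of the start of Slc5a1l1, a gene of the sodium-coupled sugar carrier family SLC5 (chromosome 20, position 13110525, rn4). Methylation was 57.1%, 52.1% and 51.3% in SNL libraries, against 65.3%, 63.4% and 69.9% in Sham libraries, at 530 to 699 reads. All SNL libraries were below all Sham libraries, and the difference was -12.7 points ± 2.65 (SE, adjusted p = 0.00386). The site was called in all 6 fits that left out a library (adjusted p from 0.00107 to 0.0498). The other listed CpGs within 500 bases, 154 and 197 bases away, stood at 66.4% ± 6.68 and 72.1% ± 5.42 (SD over 3 SNL libraries), against 71.8% ± 7.31 and 69.4% ± 4.45 in Sham. Their coverage was as low as 40 reads, and neither was called among sites of 20 reads or more.

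Slc29a4, which encodes the plasma membrane monoamine transporter PMAT, held the most deeply read of the called sites, in an intron 44.9 kb from the start (chromosome 12, position 12206760, rn4). Methylation was 38.5%, 32.4% and 24.9% in SNL libraries, against 15.8%, 23% and 19.1% in Sham libraries, at 1831 to 2471 reads. The lowest SNL library, SNL 3, was still above the highest Sham library, Sham 2. The difference was 12.7 points ± 4.44 (SE, adjusted p = 0.00713), and the call was lost without Sham 3 (adjusted p = 0.0642). In the unmoderated F test and in limma on logit values, the adjusted p of this site was 0.806 and 0.361. Positions 12206729 and 12206751, 31 and 9 bases before it, stood at 16.3% ± 5.85 and 15% ± 5.66 (SD over 3 SNL libraries), against 10.7% ± 2.35 and 10.2% ± 3.25 in Sham. Both had overlapping groups, with SNL 3 at 9.75% and 8.85%, and adjusted p-values of 0.159 and 0.263. When all sites of 20 reads or more were tested, of which 0.543% were called, both passed (adjusted p = 0.00147 and 0.0134). The prior for overdispersion was then drawn from sites of lower coverage as well, and the overlap of the groups remained. With sites of no spread kept in the prior, 0 Slc sites passed at that minimum, and 1 of all sites tested. The other Slc29a4 site, 27.6 kb upstream of the start, was at 15.1% ± 2.94 after SNL and 13.8% ± 1.61 in Sham.

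Both urea transporter genes, neighbours on chromosome 18, held a called site, in opposite directions. The Slc14a1 site (UT-B, position 75067949, 19.5 kb upstream) fell to 58.5%, 59% and 59.5% in SNL libraries, against 63.4%, 64.9% and 67.9% in Sham libraries, at 843 to 1047 reads. The difference was -6.4 points ± 1.34 (SE, adjusted p = 0.039). The 5 annotated Slc14a1 sites lay 19.1 to 19.5 kb upstream, and all 5 differences were negative, -7.21 to -3.74 points, with 1 site called. Close CpGs can share reads, so these 5 differences need not be independent. The unannotated CpGs within 500 bases of the called site went both ways, 2.63 and 1.91 points against -7.78 and -7.47 points. Their coverage was as low as 23 reads, and none was called among sites of 20 reads or more. The call of the Slc14a1 site was lost with library offsets (adjusted p = 0.0777). The Slc14a2 site (position 76005924) lay 506.2 kb upstream of the nearest listed start, so its link to that gene rests on distance alone. It was at 37.6%, 35.6% and 36.5% in SNL libraries and 17%, 31.1% and 22.4% in Sham libraries, at 161 to 289 reads, and all SNL libraries were above all Sham libraries. The difference was 13.1 points ± 4.12 (SE, adjusted p = 0.0398). The CpG 11 bases before it stood at 30.8% ± 1.3 after SNL and 22.4% ± 6.5 in Sham (SD over 3 libraries, adjusted p = 0.158). The CpG 33 bases before the Slc14a2 site stood at 10.2% ± 0.34 after SNL and 7.92% ± 0.29 in Sham (adjusted p = 0.611), a difference of 2.25 points.

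The Slc35g1 site, assigned to a gene of the SLC35 family of mostly nucleotide sugar carriers, lay 24.2 kb from the start (chromosome 1, position 242737693). It fell to 85.5%, 86.9% and 85.1% in SNL libraries, against 93.5%, 91.3% and 92.2% in Sham libraries, at 358 to 424 reads. The groups did not overlap, and the difference was -6.48 points ± 0.84 (SE, adjusted p = 0.0283). The annotated CpG 42 bases before it was at 90.8% ± 0.8 after SNL and 93.5% ± 2.3 in Sham (SD over 3 libraries, adjusted p = 0.423). The Slc35g1, Slc14a1 and Slc14a2 sites were each called in 1 of the 6 fits that left out a library, Slc35g1 without SNL 1, Slc14a1 without Sham 1 and Slc14a2 without Sham 2. Their highest adjusted p-values were 0.124, 0.241 and 0.266, without Sham 3 for Slc35g1 and Slc14a1 and without Sham 1 for Slc14a2.

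**Figure D3:**
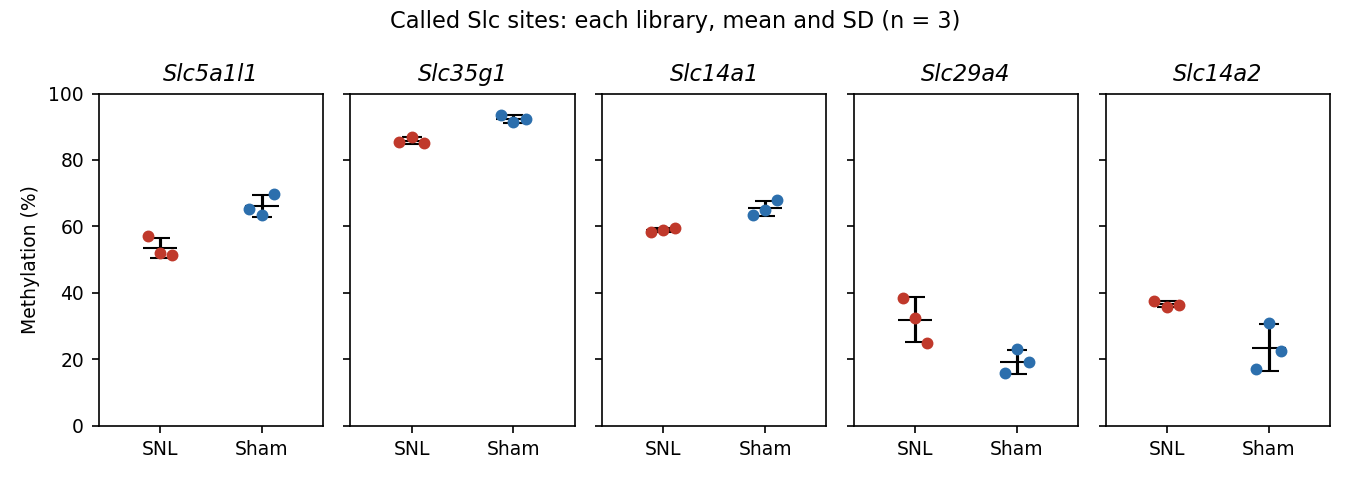
Methylation (%) of the 5 called Slc sites in each library (dots), with mean and SD (bars, n = 3), SNL in red and Sham in blue. The Slc5a1l1, Slc35g1 and Slc14a1 sites are lower in all SNL libraries, and the Slc29a4 and Slc14a2 sites are higher in all SNL libraries.

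In the authors' deposited table, q-values were also read. There, 28 of the 671 Slc sites (4.17%) have a q-value under 0.05, beside 4.54% of all sites. These 28 include 4 of the 5 sites called here, and the fifth, Slc29a4, has a q-value of 0.0671 there. In 111 Slc sites (16.5%) the groups did not overlap, 80 of them lower after SNL, beside 17.8% of all sites. By size, 7 Slc sites (1.04%) differed by 10 points or more, beside 1.92% of all sites. The 4 of them that were not called are given here because of their size, once known. The first was in Slc38a2 (SNAT2, a neutral amino acid carrier), 27.1 kb upstream, at 50.8%, 40.9% and 41.4% in SNL libraries and 62%, 60.4% and 56.2% in Sham libraries (adjusted p = 0.0961, 111 to 132 reads). The groups did not overlap there, nor at the Slc44a3 and Slc4a8 sites that follow. Slc44a3, of the choline transporter-like family, was at 53.1% ± 1.75 after SNL and 65.5% ± 4.3 in Sham, and Slc4a8, a sodium-driven bicarbonate exchanger gene, was at 72% ± 2.21 and 83.4% ± 3.21 (SNL and Sham, SD over 3 libraries, adjusted p = 0.119 and 0.0596). The last, in an intron of Slc47a1, a drug and cation extruder gene, was at 70.3%, 36.6% and 39.2% in SNL libraries against 35.9%, 34.2% and 32.1% in Sham libraries, with SNL 1 far above the other 5 libraries. Its adjusted p was 0.299, and its groups did not overlap.

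Libraries of 1 group also differed widely at 2 further Slc sites, chosen after their values were seen. A site 129.1 kb upstream of Slc25a4, the mitochondrial ADP/ATP carrier gene, was at 2.07%, 1.51% and 47.7% in SNL libraries and 49.8%, 1.8% and 1.79% in Sham libraries. SNL 3 and Sham 1 were thus near 50% and the other 4 libraries near 2%. A site 30.3 kb from the start of Slc15a4, a lysosomal peptide and histidine carrier gene, was at 36%, 60% and 32.7% in SNL libraries and 32.9%, 55.4% and 57.2% in Sham libraries. SNL 1, SNL 3 and Sham 1 were the low libraries there, and neither the Slc25a4 nor the Slc15a4 site was called (adjusted p = 0.941 and 0.93).

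When the reads of a gene's annotated sites were added up, 0 of the 173 Slc genes were called, beside 43 of all 8016 genes (0.536%). At an unadjusted p under 0.05 there were 26 Slc genes (15%), 21 of them lower after SNL, beside 13.7% of all genes. The unmoderated F test and limma on logit values called 0 Slc genes, with 15 and 24 at that level, and 0 and 6 of all genes. The median gene difference was -0.86 points for Slc genes and -0.79 points for all genes, and 33 Slc genes (19.1%) had no overlap between the groups, beside 19.5% of all genes. Without SNL 1, Slc5a1l1 was called (adjusted p = 0.0453), as were 0.923% of all genes. When only sites within 10 kb of the start were summed, 2 of 68 Slc genes were called, Slc5a1l1 through its 1 such site and Slc26a6, beside 40 of 3341 genes (1.2%).

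The lowest p-values in the sums were those of Slc10a2, Slc26a6 and Slc6a15, all uncalled. Slc26a6, an anion exchanger gene known from epithelia, had 4 sites annotated as intronic 5.8 to 9.1 kb upstream of its start. Their sum was 74.8%, 74.4% and 73.3% in SNL libraries and 78.3%, 78.4% and 80.4% in Sham libraries, with no overlap (adjusted p = 0.112 over all genes). The sum differed by -4.87 points, more than any of its sites (-4.74 to -0.32 points), so it does not reflect site methylation alone. Slc10a2, the ileal bile acid transporter gene, was at 86.4%, 85.3% and 84.1% in SNL libraries and 88.6%, 89.6% and 89.6% in Sham libraries (adjusted p = 0.101). Its 4 sites lay 168 to 1641 kb from the start. Slc6a15, a neutral amino acid carrier gene expressed in brain, was at 71.2%, 71.5% and 71.1% in SNL libraries and 76.9%, 76.7% and 78.7% in Sham libraries over 2 sites (adjusted p = 0.147).

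The members were also grouped into transport classes by SLC family number alone, so a class can hold genes that carry something else. The adaptor gene Slc4a1ap is counted in the ion exchange class. The amino acid carrier genes Slc6a14 and Slc6a15 are in the neurotransmitter class, and the monoamine transporter gene Slc29a4 is in the nucleoside and nucleotide sugar class. Over all annotated sites 1.42% were called and 13.1% had an unadjusted p under 0.05, of which 78.2% were lower after SNL, and the class counts stand beside these shares. The neurotransmitter class (families SLC1, SLC6, SLC17, SLC18 and SLC32) had 19 genes and 77 sites, of which 0 sites were called and 10 had an unadjusted p under 0.05, 7 lower and 3 higher. Its mean was 60% ± 0.98 after SNL and 60.7% ± 0.44 in Sham (SD over 3 libraries). Next to Slc6a15, its lowest p-values were those of Slc6a14, an amino acid carrier gene (85.9% ± 1.59 and 91.1% ± 0.86), and Slc1a7, a glutamate transporter gene of the retina (34.7% ± 1.1 and 42.9% ± 1.72; SNL and Sham, SD over 3 libraries). Their adjusted p-values were 0.204 and 0.348. The 18 amino acid genes held 64 sites, 0 of them called, and their lowest p-values were those of Slc7a3l1 (93.4% ± 0.2 after SNL and 98% ± 0.67 in Sham, 1 site), Slc43a2 (57.6% ± 1.6 and 53.8% ± 3.07) and Slc38a6 (86.6% ± 0.74 and 84.5% ± 0.66), with adjusted p from 0.212 to 0.364.

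The ion exchange class, with carriers of chloride, bicarbonate, sodium, calcium, protons and phosphate, was the largest by genes, 32 with 126 sites. It had 0 called sites and 14 at an unadjusted p under 0.05, 11 lower and 3 higher. After Slc26a6 came Slc26a7, an anion exchanger gene (80.2% ± 1.67 after SNL and 84.3% ± 1.16 in Sham), and Slc4a1, the red cell band 3 gene (87.3% ± 0.54 and 91.3% ± 1.37; SD over 3 libraries), both with an adjusted p of 0.221. The sugar class had 18 genes and 63 sites with 1 called, at Slc5a1l1. Its other low p-values were those of Slc2a12, a glucose transporter gene (91.2% ± 1.19 after SNL and 94.1% ± 0.18 in Sham, adjusted p = 0.18), and Slc50a1 (18.6% ± 0.67 and 15% ± 1.88, adjusted p = 0.286).

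In the metal class, 16 genes held 62 sites, 0 of them called. Slc30a1, which encodes the zinc exporter ZnT1, came first, with sums of 20.6% ± 1.19 after SNL and 25% ± 0.7 in Sham (adjusted p = 0.244). Of its 4 sites, one 31.2 kb upstream was at 33.8% ± 2.16 after SNL and 30.2% ± 2.41 in Sham, and one 25.1 kb upstream at 36.4% ± 0.17 and 42.8% ± 1.6 (adjusted p = 0.7 and 0.442). The other two, about 11 kb upstream, were at 5.95% ± 0.59 and 5.12% ± 2.11 (SD over 3 SNL libraries), against 14% ± 2.03 and 12.8% ± 2.73 in Sham. At this pair, singled out after its values were seen, the groups did not overlap, and neither site passed (adjusted p = 0.0755 and 0.108, 133 to 188 reads). The next metal genes, Slc30a5, a zinc carrier gene, and Slc41a2, a magnesium carrier gene, had adjusted p-values of 0.398 and 0.43.

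The organic ion class (24 genes, 131 sites) held 2 called sites, those of both urea transporter genes, and 21 at an unadjusted p under 0.05, 18 lower and 3 higher. In the sums, Slc14a1 was at 63.1% ± 2.98 after SNL and 68.5% ± 1.92 in Sham, Slc44a3 had its 1 site, and Slc16a10, an aromatic amino acid carrier gene, was at 44.5% ± 2.22 and 51.3% ± 4.09 (SD over 3 libraries). Their adjusted p-values ran from 0.179 to 0.227. The nucleoside and nucleotide sugar class (14 genes, 44 sites) held 2 called sites, at Slc29a4 and Slc35g1, and 4 at an unadjusted p under 0.05, 1 lower and 3 higher. The mitochondrial class (17 genes, 52 sites) and the lipid, bile acid and vitamin class (15 genes, 52 sites) had 0 called sites. At an unadjusted p under 0.05 they had 6 sites (5 lower and 1 higher) and 8 sites (7 lower and 1 higher). Their lowest adjusted p-values in the sums were 0.236 for Slc25a2, an ornithine carrier gene, and 0.101 for Slc10a2. The fatty acid transport genes Slc27a6 and Slc27a5 were at 68% ± 2.7 and 70.7% ± 3.76 after SNL, against 72.2% ± 1.07 and 64.9% ± 1.52 in Sham (adjusted p = 0.322 and 0.362). Slc28a3, a nucleoside carrier gene, was at 86.7% ± 0.96 after SNL and 88.4% ± 0.78 in Sham (adjusted p = 0.43). Slc35a2, a UDP-galactose carrier gene, was at 67.9% ± 3.36 after SNL and 71.8% ± 1.05 in Sham (adjusted p = 0.462). The mitochondrial genes Slc25a4 and Slc25a54 were at 55% ± 1.27 and 87.6% ± 1.72 after SNL, against 57.6% ± 2.23 and 90.5% ± 0.75 in Sham (adjusted p = 0.436 and 0.45). Across the 9 classes the median site difference ran from -0.87 points in the metal class to -0.25 points in the neurotransmitter class, around the -0.55 points of all sites.

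**Figure D4:**
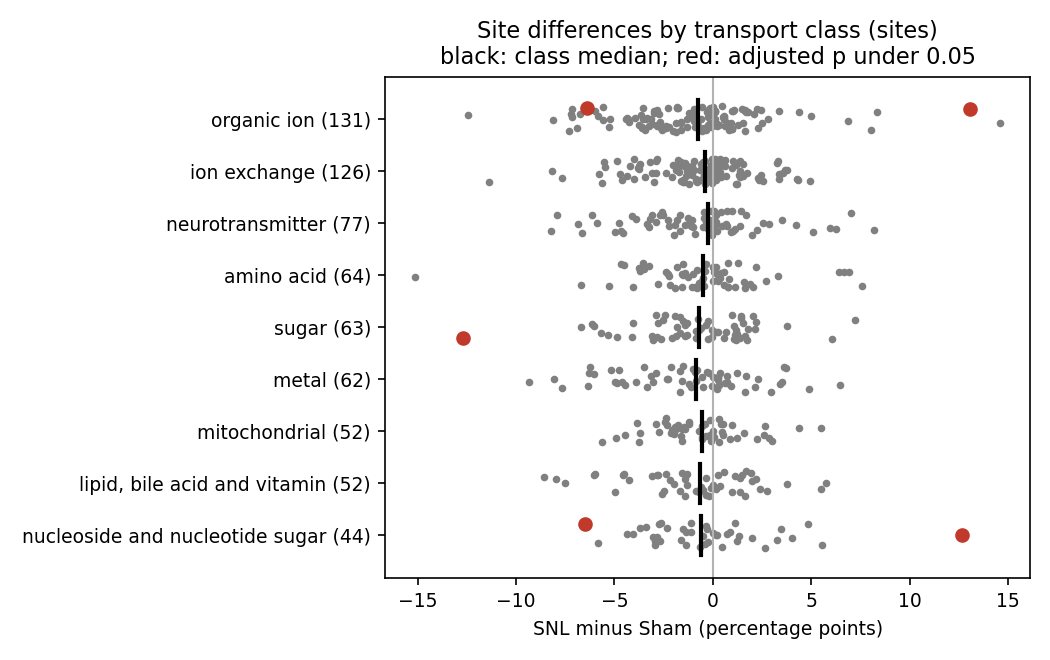
SNL minus Sham difference (percentage points) of each Slc site, by transport class with the number of sites in brackets. Black lines are class medians, all between -0.87 and -0.25 points, and red dots are the 5 called sites.

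Of 28 transporter genes best known from sensory neurons and their glia, 21 had annotated sites, 117 in all. None of the 21 was called in the sums, 0 had an unadjusted p under 0.05 (13.7% of all genes had), and the median difference was -0.18 points. Limma and the unmoderated F test called 0 of the 21, but only 6 and 0 of all 8016 genes. None of their 117 sites was called, and 12 (7 of them lower) had an unadjusted p under 0.05, beside 1.42% and 13.1% of all sites. Slc17a6, which encodes VGLUT2, the vesicular glutamate transporter of most sensory neurons, was at 80%, 84.9% and 84.2% in SNL libraries and 84.9%, 85.7% and 87.7% in Sham libraries (adjusted p = 0.43). Its 3 sites lay 128.1 to 212.1 kb upstream. Slc17a7 (VGLUT1) was at 27.6% ± 4.49 after SNL and 27.8% ± 4.88 in Sham, over 4 sites about 5.5 kb from the start. Slc17a8 (VGLUT3) was at 83.4% ± 2.71 and 82.7% ± 2.33 (SD over 3 libraries).

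The carriers that set neuronal chloride had sites in the promoter and farther away. Slc12a2 (NKCC1) was at 49.9%, 46.7% and 52.4% in SNL libraries and 46.9%, 57.1% and 57.1% in Sham libraries over 9 sites (adjusted p = 0.659). Slc12a5 (KCC2, the chloride exporter of mature central neurons) was at 41.9%, 46.9% and 48.4% in SNL libraries and 40.9%, 50% and 48.9% in Sham libraries over 10 sites (adjusted p = 0.992). Both genes had overlapping groups. Site means of Slc12a5 ran from 0.73% to 96.9% after SNL and from 0.14% to 95.7% in Sham, the lowest of them in the promoter. Slc32a1, which loads GABA and glycine into vesicles, was at 7.95%, 6.77% and 6.75% in SNL libraries and 6.08%, 5.95% and 5.47% in Sham libraries over 2 sites 2.3 kb from the start. All SNL libraries were higher than all Sham libraries there, by 1.32 points between the means (adjusted p = 0.615).

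Glutamate uptake genes of glia and neurons did not pass. Slc1a2 (GLT-1) was at 17% ± 0.78 after SNL and 17.7% ± 0.32 in Sham, Slc1a3 (GLAST, 16 sites) at 80.3% ± 2.59 and 79.1% ± 1.23, and Slc1a1 (EAAC1) at 80.8% ± 1.01 and 80.7% ± 1.7 (SD over 3 libraries). Their adjusted p-values ran from 0.764 to 0.98. The glycine transporter gene Slc6a5 was at 33.7% ± 1.62 after SNL and 33.2% ± 1.17 in Sham, the serotonin transporter gene Slc6a4 at 92% ± 1.41 and 92.9% ± 1.04, and the vesicular monoamine transporter gene Slc18a2 at 91.1% ± 1.38 and 93.2% ± 2.47. For glucose and lactate, Slc2a1 (GLUT1) was at 22.2% ± 0.54 after SNL and 23.1% ± 0.69 in Sham, Slc2a3 (GLUT3) at 46.4% ± 1.62 and 44.4% ± 3.78, and Slc16a1 (MCT1) at 86.7% ± 2.03 and 88.4% ± 2.37. Of the 11 sites of Slc2a1, 2 were singled out after their values were seen. One 39.8 kb upstream had 12.9%, 16.9% and 12.8% in SNL libraries and 21.1%, 18.7% and 20.9% in Sham libraries, and one 33.2 kb upstream had 44.6%, 44.4% and 46.4% in SNL libraries and 34%, 44.2% and 39% in Sham libraries. The SNL libraries lay below Sham at the one and above at the other (adjusted p = 0.169 and 0.333).

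The remaining genes of this list also had overlapping groups. The cystine carrier gene Slc7a11 was at 94.8% ± 0.83 after SNL and 96.1% ± 0.99 in Sham, the glutamine carrier genes Slc38a1 at 78.5% ± 0.98 and 78% ± 1.1 and Slc38a2 at 33.8% ± 1.06 and 33.4% ± 0.95 (SD over 3 libraries). The sodium-calcium exchanger genes Slc8a1 and Slc8a2 were at 65.9% ± 2.9 and 2.7% ± 1.03 after SNL, against 68.2% ± 2.56 and 2.75% ± 0.69 in Sham. The vesicular zinc carrier gene Slc30a3 had 1 site with a wide spread, 20.9%, 26.2% and 38.4% in SNL libraries and 31.5%, 22.1% and 12.6% in Sham libraries. Its adjusted p was 0.852, and 103 to 200 reads at 1 site do not allow a difference of a few points to be seen against that spread.

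**Figure D5:**
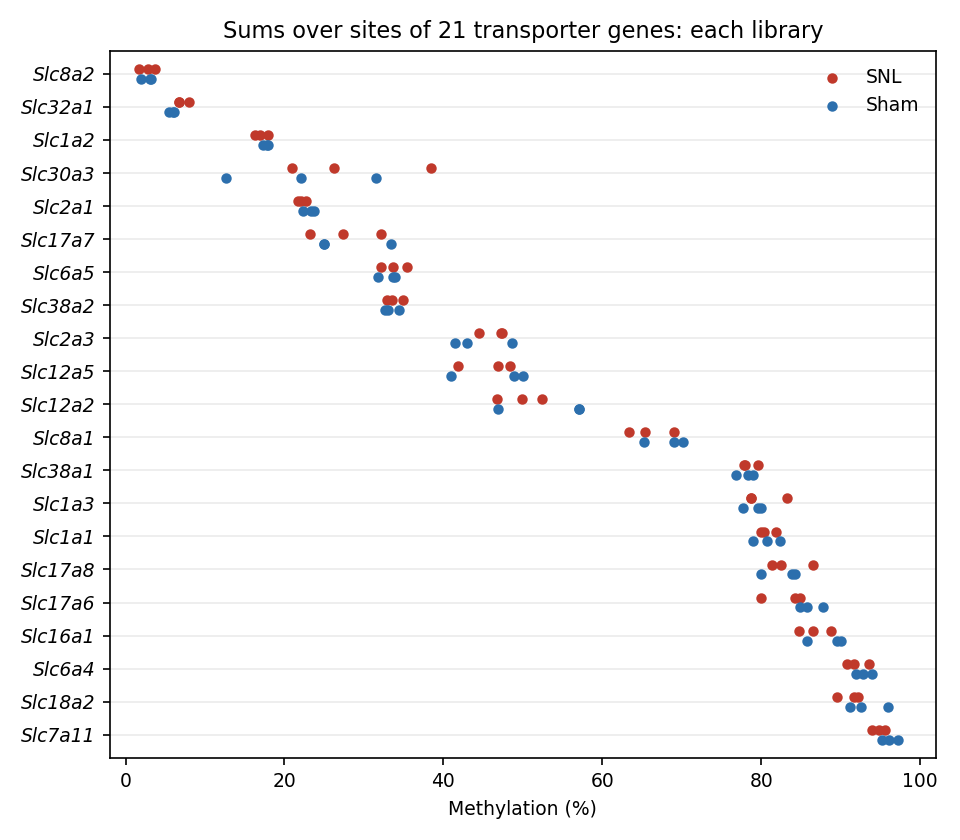
Methylation (%) summed over the annotated sites of 21 transporter genes known from sensory neurons and glia, in each SNL library (red, upper dots) and each Sham library (blue, lower dots). Genes run in order of the Sham mean, and SNL and Sham dots overlap for each gene except Slc32a1.

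The genes with most sites showed how widely levels vary within 1 gene region. The 33 sites of Slc14a2 spread from 672.9 kb upstream to 141.8 kb downstream of a start, with site means from 1.82% to 99.1% after SNL and from 0.84% to 98.4% in Sham. The 29 sites of Slc15a4 ran from 0.54% to 93.9% after SNL and from 0.59% to 95.9% in Sham, and 20 of them were lower after SNL. Slc39a10, a zinc importer gene with 14 sites, had 12 lower after SNL, with differences from -6.26 to 1.68 points, and Slc38a2 and Slc1a3 each had 7 lower, of 14 and 16 sites. Sums for these genes were at 77.3% ± 1.01 and 77.9% ± 1.81 (Slc14a2), 34.1% ± 2.26 and 35.7% ± 0.44 (Slc15a4) and 79.3% ± 1.76 and 81.4% ± 2.19 (Slc39a10) in SNL and Sham libraries (SD over 3 libraries), with adjusted p from 0.536 to 0.824.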

How the data were processed

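Bismark 0.18.1, Bowtie2, methylKit 1.3.3 and the build rn4 are named in the submitters' processing notes, while a human assembly appears in the labels' protocol. For every CpG cytosine of a library, the deposited files give the read count (coverage) and the percent of reads with C and with T. The deposited series table holds the percent methylation, a p-value and a q-value from the authors, annotation flags and, as scores, the signed distance to the nearest transcript start and the authors' difference in points. How the authors set up their test is not given here. Mitochondrial sites were not used here.

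Methylated counts were recovered as coverage times percent of C. RefSeq accessions were matched to symbols in a RefSeq GRCr8 list, used for names only (7627 of 8123 transcripts). Each site had a logistic regression with group as its term. Its overdispersion, the Pearson chi-square divided by 4 residual degrees of freedom, was moderated with limma's squeezeVar and floored at 1. The F test was two-sided, with Benjamini-Hochberg adjustment. Sites with no spread between libraries were left out of the prior. Gene sums were tested likewise, and close CpGs can share reads in them. A sum weights each site by its reads, so it also moves when coverage shifts between sites of unlike level. Differences are means of library percents, SNL minus Sham. The test was also run on simulated data with the same spread setting for all sites. That run cannot show how the test does where spread differs between sites. R 4.3.3 was used with limma 3.58.1. Python 3.11.15 was used with matplotlib 3.10.9, numpy 2.4.6 and pandas 2.3.3.

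The members, lists and tests were chosen with earlier results of these data known. Sites named are all called Slc sites, their neighbours, promoter sites and those said to be chosen after their values were seen. Genes named are up to 3 per transport class with the lowest p, the 5 with most sites, the 3 lowest and 3 highest promoters, and 28 transporters known from sensory neurons and glia (a further gene of that list is not reported here), beside those said to be chosen after their values were seen. Alternatives were other coverage minimums, library offsets, an unmoderated test, limma on logit values (pseudocount 1), a replicate block, a 10 kb limit and leaving out each library.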

Additional observations from a re-analysis of the deposited data

How the results depend on the processing

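Called Slc sites (5 in the fit reported) numbered 0 with the unmoderated F test and with limma, 2 with the replicate block, 3 at a coverage minimum of 200, 1 within 10 kb, 10 at a minimum of 20 and 1 to 8 without a library in turn. Called annotated sites (464) numbered 0, 0, 283, 240, 139, 784 and 124 to 549 under the same settings. Keeping sites with no spread in the prior, chosen after seeing the data, left 5 and 407 at the minimum of 100 but 0 and 1 at the minimum of 20. Called gene sums (43, of which 0 Slc) numbered 0 with the unmoderated F test, 6 with limma, 10 with the replicate block and 3 to 74 without a library in turn. Called Slc gene sums numbered 2 within 10 kb and 0 to 1 without a library in turn. The cause was not tested, apart from fewer sites or libraries where the setting itself removes them. Called Slc promoter sites stayed at 0 under each alternative, and the Slc mean difference (-0.82 points) ran from -1.26 to -0.55 points without a library in turn and was -0.40 points within 10 kb.

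Same-numbered libraries did not deviate together in each pair (correlations of -0.05, 0.26 and -0.14 for numbers 1 to 3). These correlations were not tested and cannot tell whether the numbers pair the samples, which the labels do not say. SNL 3 correlated best with Sham 1 (0.34). Of the 5 called sites, Slc5a1l1 and Slc29a4 kept their call with the replicate block, and 0 of the 55 named gene sums was called with it.

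The sign of 7 uncalled sums turned with library offsets, Slc12a5 (0.30 points), Slc14a2 (0.14), Slc17a7 (0.81), Slc1a2 (0.036), Slc35b2 (0.57), Slc5a4 (0.086) and Slc8a2 (0.086). Without a library in turn, uncalled sums spanned both signs for Slc12a5 (-3.71 to 1.04), Slc17a7 (-2.47 to 2.64), Slc17a8 (-0.80 to 1.78), Slc1a1 (-0.79 to 0.90), Slc1a3 (-0.35 to 1.89), Slc35b2 (-1.19 to 0.47), Slc38a1 (-0.16 to 0.92), Slc38a2 (-0.17 to 0.96), Slc39a8 (-0.47 to 3.71), Slc4a2 (-0.034 to 0.51), Slc5a4 (-2.12 to 0.50), Slc6a5 (-0.26 to 1.37) and Slc8a2 (-0.54 to 0.49).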
